A study of Mus musculus with 20 samples.

Results

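The genes described here are the serine proteases named Prss, Tmprss and Klk in mouse testis. They were chosen by symbol, as every row of the count table whose name starts with 1 of those 3 stems followed by a digit and that held at least 10 counts over the 20 libraries. Of 22066 symbols in the table, 83 had such a name and 72 reached 10 counts. RNA of whole testis was sequenced in 5 groups of 4 libraries. All mice were males of the immunodeficient NSG strain, 6 weeks of age by the labels. High-VCR and Low-VCR mice had received 400000 human B-cell acute lymphoblastic leukaemia cells from a patient-derived xenograft through the tail vein and then vincristine, at 0.5 mg/kg by intraperitoneal injection, weekly for 3 weeks starting on day 69, and are labelled by high or low infiltration of leukaemia. VCR mice had the same vincristine, and their labels name no injected cells. ALL mice carried the xenograft and had saline, and NC mice were the normal control. The labels do not say whether libraries of a group came from separate mice, so the tests may weigh only technical spread.

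Serine proteases of the trypsin fold cut proteins at a catalytic serine and are mostly made as inactive precursors. Many Prss genes of mice are transcribed in meiotic and haploid male germ cells, and several of their products sit on sperm or in the acrosome; mice without Prss37, Prss55 or Tmprss12 have sperm that fail to pass into the oviduct and lose mature ADAM3. Tmprss genes encode proteases anchored in the membrane. Klk genes encode kallikreins, and in mice the Klk1 gene has been duplicated into a cluster of Klk1b genes, of which Klk1b21, Klk1b24 and Klk1b27 are known from Leydig cells, the testosterone-making cells between the seminiferous tubules. Vincristine blocks microtubule assembly and so the division of cells.

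The 72 genes were described in 5 classes. These were 18 proteases known from germ cells or testis (called testis proteases below), 18 other Prss genes, 16 other Tmprss genes, the 14 genes of the Klk1 family and 6 other Klk genes. The filter on low counts was passed by 54 genes, which were 18 of 18 testis proteases, 11 other Prss genes, 11 other Tmprss genes, 13 Klk1 family genes and 1 other Klk gene. Depth ran from 9425158 to 16357287 counts per library, so that 3 counts were worth 0.167 to 0.365 CPM (counts scaled to a common library total). Levels below are CPM scaled by the trimmed mean of M values (TMM), given as mean ± SD of 4 libraries; fold changes are on the log2 scale with their standard error, from edgeR's quasi-likelihood test, and a call means that p, adjusted by Benjamini and Hochberg's method across the 16534 genes tested, was under 0.05.

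VCR 1 stood apart from the other vincristine libraries: its testis proteases summed to 40.8 CPM, against 366.5 to 924.6 CPM in VCR 2, 3 and 4. The markers of round spermatids, haploid germ cells, summed to 251.9 CPM in VCR 1 and to 2360 to 6143 CPM in the other 3. All 24 of these markers were detected in each group, as were all 22 Sertoli cell markers and all 15 Leydig cell markers. Markers of epididymis, the duct next to the testis, summed to 14.3 to 98.5 CPM over all libraries. Of these 14 markers, 1 to 3 had 0 counts in a given group and the rest were detected. Only Spink13 was at 0 in every group. In bulk tissue, fewer cells of a type and less RNA per cell cannot be told apart, and every level is a share of a library's RNA.

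The Klk1 family is where neighbouring genes with similar promoters changed in opposite directions under vincristine, and 5 of its promoters are shown for that reason. RefSeq (GRCm38.p6) held a promoter of 300 bases, 250 before to 50 after the annotated start, for 57 of the 72 genes and for all 14 of the Klk1 family. The lines below give the first 280 of those bases on the plus strand of chromosome 7. Klk1b21 (chr7:44102042-44102321) and Klk1b27 (chr7:44052040-44052319) were called higher in VCR against NC, as was Klk1 (chr7:44225110-44225389). Klk1b8 (chr7:43950416-43950695) and Klk1b26 (chr7:44012428-44012707) were called lower. Capitals mark TTTAAA, a variant of the TATA box, and TGACCTTG, the reverse complement of CAAGGTCA, which is the core site of NR5A1 (SF-1), a regulator of steroid-making cells.
Klk1b21: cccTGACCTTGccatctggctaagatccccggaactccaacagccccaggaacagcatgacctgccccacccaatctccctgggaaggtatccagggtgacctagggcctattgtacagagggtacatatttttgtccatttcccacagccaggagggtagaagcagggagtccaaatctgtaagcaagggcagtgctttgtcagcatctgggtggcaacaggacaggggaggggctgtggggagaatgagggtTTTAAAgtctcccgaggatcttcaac
Klk1b27: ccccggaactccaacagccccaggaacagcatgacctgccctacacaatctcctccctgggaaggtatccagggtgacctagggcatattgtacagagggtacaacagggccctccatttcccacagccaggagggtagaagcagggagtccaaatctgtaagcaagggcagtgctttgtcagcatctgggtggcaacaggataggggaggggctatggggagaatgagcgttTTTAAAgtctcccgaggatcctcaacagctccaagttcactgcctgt
Klk1b8: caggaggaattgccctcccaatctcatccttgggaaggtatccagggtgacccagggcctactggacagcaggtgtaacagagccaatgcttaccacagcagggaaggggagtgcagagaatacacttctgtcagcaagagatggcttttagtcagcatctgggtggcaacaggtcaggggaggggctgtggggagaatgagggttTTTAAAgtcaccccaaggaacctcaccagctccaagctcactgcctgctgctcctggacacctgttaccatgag
Klk1b26: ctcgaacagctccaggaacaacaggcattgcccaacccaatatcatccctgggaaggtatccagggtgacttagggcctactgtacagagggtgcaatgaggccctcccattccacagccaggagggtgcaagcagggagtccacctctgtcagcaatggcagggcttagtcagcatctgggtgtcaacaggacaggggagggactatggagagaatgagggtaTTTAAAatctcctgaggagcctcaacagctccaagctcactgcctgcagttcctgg
Klk1: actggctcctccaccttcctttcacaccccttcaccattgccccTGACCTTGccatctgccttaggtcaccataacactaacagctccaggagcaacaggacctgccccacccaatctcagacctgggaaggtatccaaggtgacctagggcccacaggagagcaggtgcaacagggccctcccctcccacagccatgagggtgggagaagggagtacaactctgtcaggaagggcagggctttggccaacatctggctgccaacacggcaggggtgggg

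Both strands were searched for 4 motifs: TTTAAA (identical to its own reverse complement), TATAAA, CAAGGTCA and TGACGTCA (the cyclic AMP response element, also its own reverse complement). TTTAAA was in 13 of the 14 Klk1 family promoters, all but Klk1, and in 21 of the 57 promoters of the genes described here, against 13.2% of 32851 mouse promoters. TATAAA was in 0 of the 14, against 13.6% of all promoters. CAAGGTCA was in the promoter windows of Klk1b21 and Klk1 and of no other gene described here, against 1.56% of all promoters. In Klk1b21 it began 247 bases before the start, near the edge of the window. The windows of Klk1b27, Klk1b8 and Klk1b26 open at sequence that follows the site in Klk1b21. The matching stretch of these genes was thus not searched, and its absence is no difference between the promoters. TGACGTCA was in none of the 57, against 1.79% of all promoters. The annotated starts are not at the same place in each gene: TTTAAA began 17 bases before the start in Klk1b27, 26 before it in Klk1b26, 44 before it in Klk1b8 and 4 after it in Klk1b21. By the bases that precede it in the relatives, the place of TTTAAA falls at or past the end of the Klk1 window. The search thus does not settle whether Klk1 lacks the motif. Promoter pairs of genes called in opposite directions in VCR against NC had a median identity of 80.7% (54% to 87.7%, 35 pairs), and pairs called in the same direction a median of 79.3% (57.0% to 87.7%, 31 pairs). The similarity of these windows covered a similar range for pairs that changed alike and for pairs that changed oppositely.

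Vincristine alone, VCR against NC, gave lower levels of most testis proteases and higher levels of 7 Klk1 family genes and 4 other Prss genes. Of the 54 genes tested, 32 were lower and 11 higher, with a median log2 fold change of −1.37; over all 16534 genes 77.7% were called, 35.6% lower and 42.1% higher, with a median of 0.10. The share of serine protease genes called was near that of all genes, and their median lay lower. Scaled on Sertoli cell markers the split was 41 lower and 7 higher. By class, 15 of 18 testis proteases were lower and 0 higher (median −2.08), 7 of 11 other Tmprss genes were lower and 0 higher, 5 of 11 other Prss genes were lower and 4 higher, and 5 of 13 Klk1 family genes were lower and 7 higher.

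**Figure D1:**
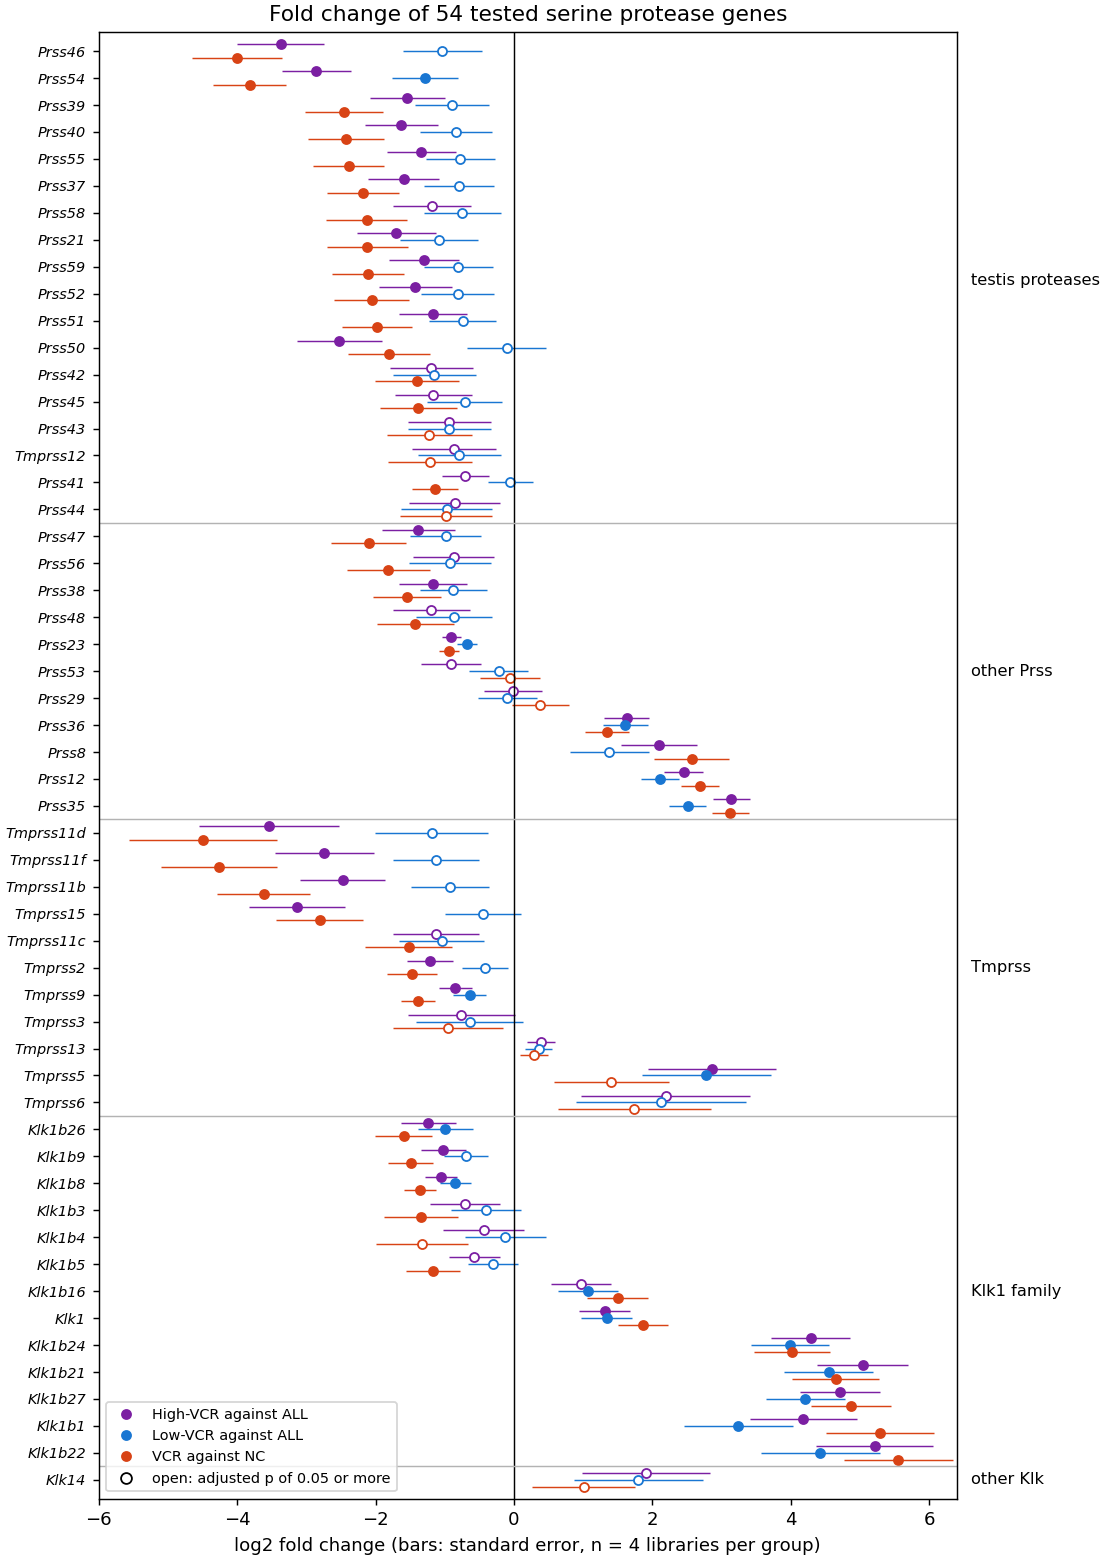
Log2 fold change (x axis; bars are standard errors, 4 libraries per group) of the 54 tested genes, one gene per row, in VCR against NC, Low-VCR against ALL and High-VCR against ALL. Filled points have an adjusted p under 0.05; 32 genes lie left of 0 with filled points in VCR against NC and 11 right of it.

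Prss39, which encodes the acrosomal protease TESP1, had the highest level per kilobase of exon of the 71 genes with a known exon length (all but Prss59) in NC testis (503 CPM per kb) and in ALL testis (478 CPM per kb). It measured 8.84, 96.9, 237 and 145 CPM in VCR libraries, against 760, 660, 639 and 622 CPM in NC libraries. All 4 VCR libraries lay below all 4 NC libraries, with VCR 1 far under the rest. The log2 fold change was −2.46 ± 0.56 (adjusted p = 0.000741). Prss40, its neighbour in function as TESP2, averaged 13.4 ± 10.8 CPM in VCR and 72.4 ± 8.33 CPM in NC testis (log2 fold change −2.42; adjusted p = 0.000705); its exons overlap those of Cfc1 on the other strand, and since the strand setting of the counting is not given in the sources used here, reads of such partners cannot be told apart.

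Among the genes that sperm need to reach the oviduct in mice, Prss37 measured 3.50, 41.6, 84.0 and 63.0 CPM in VCR libraries, against 206, 213, 219 and 236 CPM in NC libraries. Prss55 measured 3.28, 27.2, 71.8 and 52.5 CPM in VCR libraries, against 216, 183, 206 and 206 CPM in NC libraries. For both genes the groups did not overlap, and the NC libraries were tightly grouped while the VCR libraries spread widely. The log2 fold changes were −2.19 ± 0.52 for Prss37 (adjusted p = 0.00109) and −2.39 ± 0.52 for Prss55 (adjusted p = 0.000468). Tmprss12, the third of them, measured 1.37, 6.91, 29.7 and 21.3 CPM in VCR libraries, against 33.01, 33.8, 34.4 and 36.6 CPM in NC libraries. Its VCR libraries were also all below the NC libraries, but VCR 3 lay close to them and the difference was not called (log2 fold change −1.21 ± 0.61; adjusted p = 0.0773).

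The largest falls among testis proteases were those of Prss46 and Prss54. Prss46, a gene of the chromosome 9 cluster, measured 0.533, 6.08, 7.02 and 11.8 CPM in VCR libraries, against 112, 112, 94.1 and 89.1 CPM in NC libraries. Prss54, whose loss in mice impairs sperm function, measured 1.07, 11.3, 16.9 and 14.8 CPM in VCR libraries, against 158, 155, 154 and 156 CPM in NC libraries. Every VCR library of both genes was far below every NC library, VCR 3 included. The log2 fold changes were −4.001 ± 0.65 for Prss46 (adjusted p = 2.9e-05) and −3.82 ± 0.53 for Prss54 (adjusted p = 5.51e-06).

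Prss46 is 1 of 6 neighbouring genes, Prss42, Prss43, Prss44, Prss45, Prss46 and Prss50, that differed in how far they fell. Prss44 measured 0.762, 8.96, 29.7 and 21.6 CPM in VCR libraries, against 28.5, 29.6, 27.9 and 34.7 CPM in NC libraries. Its VCR 3 value lay within the NC range, and the difference was not called (log2 fold change −0.98 ± 0.67; adjusted p = 0.183). Prss43 was also not called, at 18.3 ± 14.9 CPM in VCR and 42.8 ± 3.42 CPM in NC testis (−1.22 ± 0.61; adjusted p = 0.0756). Prss42, known from meiotic germ cells, averaged 21.5 ± 18.2 CPM in VCR and 56.9 ± 3.61 CPM in NC testis (−1.40 ± 0.61; adjusted p = 0.0435), and Prss45 averaged 28.2 ± 23.2 CPM in VCR and 73.5 ± 5.53 CPM in NC testis (−1.38 ± 0.56; adjusted p = 0.0315). Without VCR 3 the log2 fold changes of Prss42 and Prss45 were −2.03 and −1.98, and without VCR 2 neither was called (−1.22 and −1.23). Prss42 was also not called without VCR 1 or 4 or any single NC library, nor Prss45 without NC 1. Prss50, whose product has a threonine in place of the catalytic serine, measured 2.82, 7.67, 4.46 and 25.0 CPM in VCR libraries, against 34.7, 40.04, 32.7 and 32.04 CPM in NC libraries. VCR 4 was the high library here, and without it the log2 fold change of −1.80 ± 0.60 (adjusted p = 0.0109) became −2.80.

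**Figure D2:**
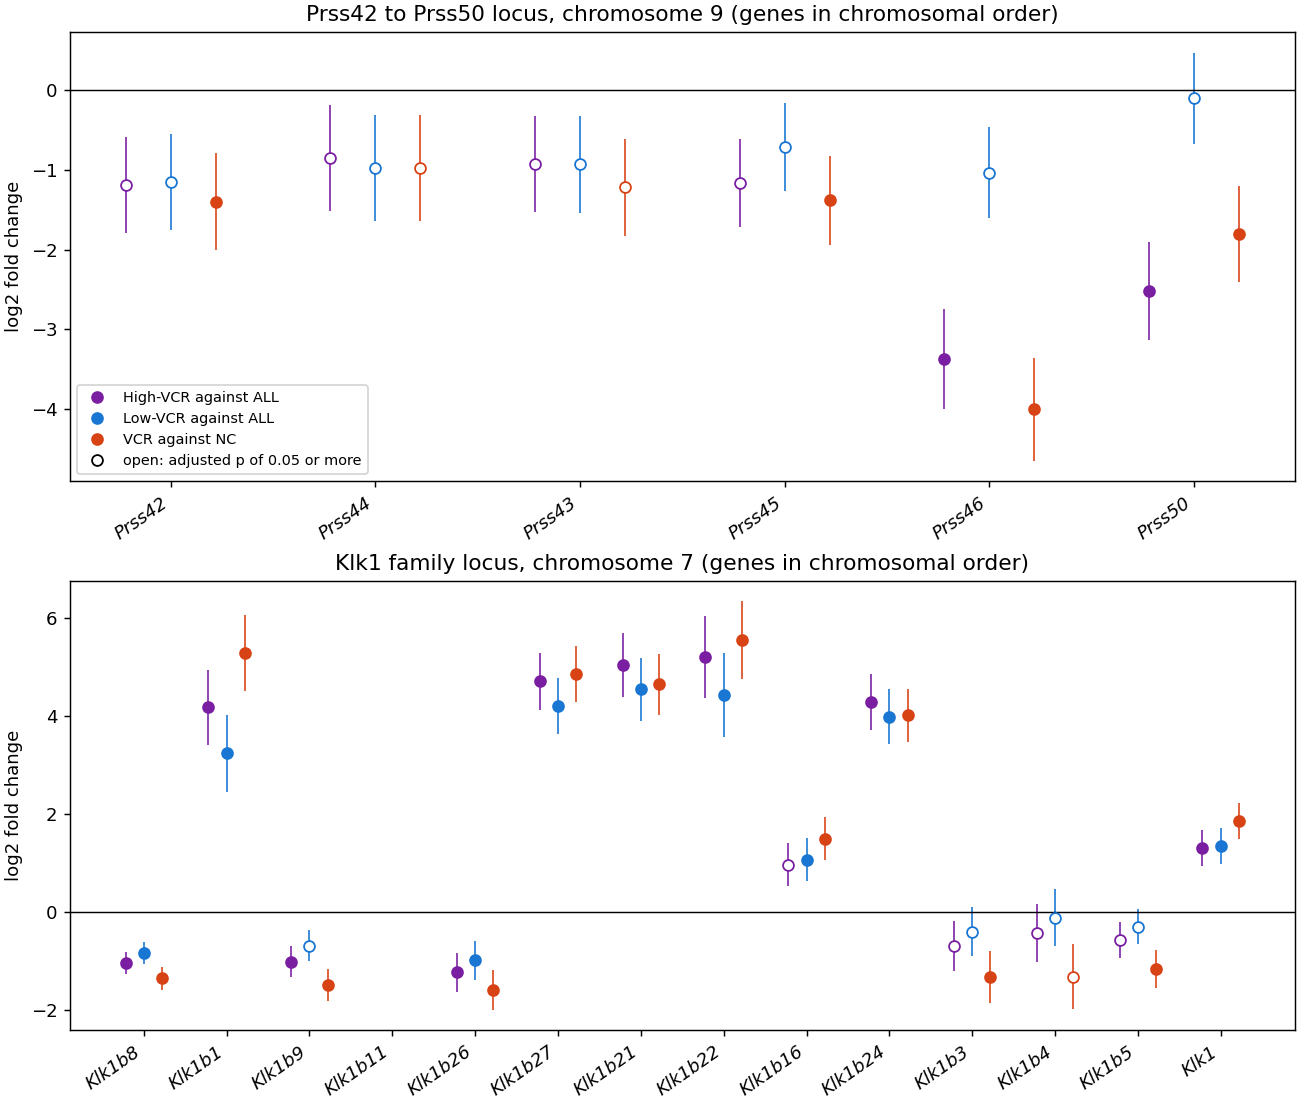
Log2 fold change (y axis; bars are standard errors, 4 libraries per group) of the 6 chromosome 9 genes and the 14 Klk1 family genes, in chromosomal order along the x axis, in 3 comparisons; Klk1b11 has no value because it did not pass the filter on low counts. Prss46 lies lowest in its cluster at −4.001 in VCR against NC, and in the Klk1 cluster genes at 4.02 to 5.56 stand beside genes at −1.17 to −1.59.

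The other testis proteases called in VCR against NC fell by less than Prss46 and Prss54. Prss21 (testisin, a sperm surface protease) averaged 23.96 ± 18.2 CPM in VCR and 104 ± 8.90 CPM in NC testis, a log2 fold change of −2.12 ± 0.58 (adjusted p = 0.0032). Prss58 and Prss59, trypsin-like genes of chromosome 6, had log2 fold changes of −2.13 and −2.11. Prss51 and Prss52, which lie near Prss55, had −1.98 and −2.06; without VCR 3 the value of Prss51 was −2.61. Prss41 changed least, at 2.19 ± 1.18 CPM in VCR and 4.87 ± 0.609 CPM in NC testis (−1.14 ± 0.34; adjusted p = 0.00513), and its exons overlap Prss32 on the other strand. No testis protease had a higher mean in VCR than in NC testis.

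**Figure D3:**
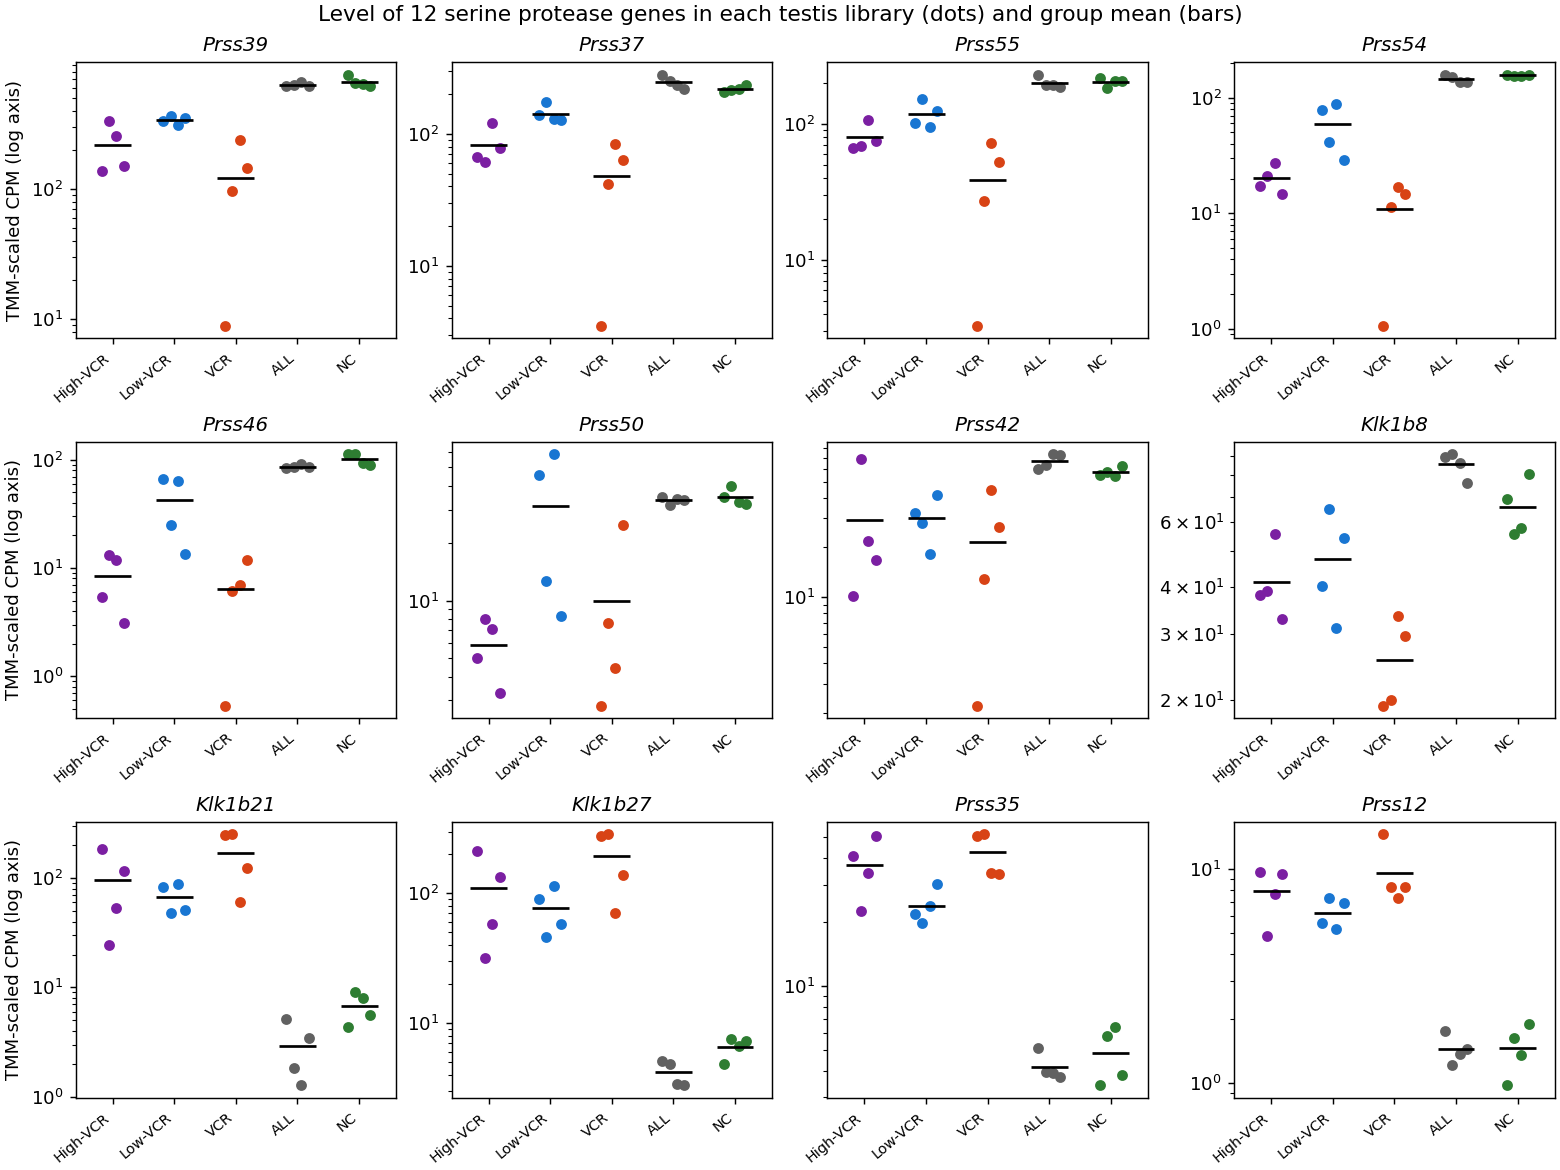
TMM-scaled CPM (y axis, log scale) of 12 genes in each library (dots) with the group mean (bars), for High-VCR, Low-VCR, VCR, ALL and NC testis. Prss39, Prss37 and Prss55 are lowest in VCR 1, while Klk1b21, Klk1b27, Prss35 and Prss12 are higher in every library given vincristine than in any ALL or NC library.

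The Klk1 family split into 7 genes called higher, 5 called lower and 1 not called in VCR against NC. Klk1b27 measured 277, 287, 70.6 and 139 CPM in VCR libraries, against 4.87, 7.53, 6.69 and 7.28 CPM in NC libraries. Klk1b21 measured 246, 253, 60.1 and 125 CPM in VCR libraries, against 4.39, 9.15, 8.05 and 5.55 CPM in NC libraries. Both were highest in VCR 1 and VCR 2 and lowest in VCR 3, which still exceeded every NC library. Their log2 fold changes were 4.87 ± 0.58 (adjusted p = 1.03e-06) and 4.65 ± 0.63 (adjusted p = 4.17e-06). Klk1b24, the third of the genes known from Leydig cells, averaged 120 ± 62.0 CPM in VCR and 7.43 ± 1.21 CPM in NC testis (4.02 ± 0.55; adjusted p = 4.71e-06). Klk1b21 and Klk1b24 share much sequence: 29.1% and 33.9% of their 50-base windows also occur in another gene, and over the family this share was 10.1% to 33.9%, so reads may have been dropped or assigned to a relative.

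Klk1b22, whose product cuts the precursor of nerve growth factor, and Klk1b1 rose by the largest log2 fold changes of the family, 5.56 ± 0.79 (adjusted p = 7.5e-06) and 5.29 ± 0.78 (adjusted p = 1.15e-05), at lower levels than the other 3. Klk1b22 averaged 13.1 ± 7.06 CPM in VCR and 0.271 ± 0.0445 CPM in NC testis, and Klk1b1 averaged 11.8 ± 6.33 CPM in VCR and 0.292 ± 0.102 CPM in NC testis. In NC testis these levels rest on 11 and 12 counts over the 4 libraries. Klk1, the tissue kallikrein that releases kinins, measured 23.5, 20.1, 7.41 and 11.8 CPM in VCR libraries, against 4.51, 3.12, 3.78 and 5.70 CPM in NC libraries. Its groups did not overlap either, and the log2 fold change was 1.86 ± 0.37 (adjusted p = 0.000194). Klk1b16 was higher by 1.498 ± 0.45 (adjusted p = 0.00547). When libraries were scaled on Sertoli cell markers, which moved the median of all genes in this comparison to −2.05, Klk1 and Klk1b16 changed sign (−0.39 and −0.74) and the other 5 stayed higher (1.74 to 3.35).

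The 5 members called lower included Klk1b8, the most abundant gene of the family in NC testis. Klk1b8 measured 19.3, 19.9, 33.4 and 29.7 CPM in VCR libraries, against 69.2, 55.6, 57.7 and 80.6 CPM in NC libraries. The groups did not overlap, and the log2 fold change was −1.36 ± 0.23 (adjusted p = 4.34e-05). Klk1b26, which can convert prorenin in mice, measured 0.990, 3.11, 8.72 and 3.73 CPM in VCR libraries, against 14.0, 10.8, 9.89 and 15.6 CPM in NC libraries (−1.59 ± 0.41; adjusted p = 0.00202; −2.26 without VCR 3). Klk1b9, a binding protein of epidermal growth factor, had −1.49 ± 0.33 (adjusted p = 0.000547) and Klk1b5 had −1.17 ± 0.39 (adjusted p = 0.0118). Klk1b3, the gamma subunit of nerve growth factor, had −1.34 ± 0.53 (adjusted p = 0.0295); this value was −2.31 without VCR 3 and was not called without VCR 2 (−1.15), VCR 4 (−1.27) or NC 4 (−1.14). Klk1b4, the alpha subunit, was not called at 0.488 ± 0.730 CPM in VCR and 1.28 ± 0.447 CPM in NC testis (−1.33 ± 0.66; adjusted p = 0.077). Klk1b5 and Klk1b3, and with them Prss42, Prss45, Prss48 and Tmprss11c, lost their calls in VCR against NC with library size alone (Klk1b5 −0.81, adjusted p = 0.057) and in a fit to the 2 groups alone (Klk1b5 −1.22, adjusted p = 0.055).

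The make-up of the family's counts moved accordingly. The 7 genes called higher held 75.3% to 97.1% of the family's counts in VCR libraries, against 16.6% to 26.1% in NC libraries; these genes were picked from this contrast, so the share is a description. The remaining libraries are not sides of this contrast, but they shared its fit. There the 7 genes held 57.0% to 90.7% in High-VCR and 57.3% to 85.1% in Low-VCR libraries, against 7.65% to 13.9% in ALL libraries. Klk1b27 ranked first per kilobase of exon in VCR testis (217 CPM per kb), ahead of Klk1b21 (196 CPM per kb), Klk1b24 (137 CPM per kb) and Prss39 (91.6 CPM per kb). In NC testis the first 3 of the 71 genes with an exon length were Prss39, Prss37 (195 CPM per kb) and Prss55 (145 CPM per kb). Prss59, at 220 CPM in NC testis, has no place in this order.

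Leydig and germ cell markers moved with both sides of the family, and their part in the result was not tested. The 15 Leydig cell markers summed to 18566, 15537, 8462 and 11792 CPM in VCR 1 to 4, against 1583 to 2389 CPM in NC libraries; 14 were called higher and 1 lower. VCR 1 and VCR 2, with the highest Leydig marker sums of the group, also had the highest sums of the 7 kallikreins (762 and 760 CPM), and VCR 3, with the lowest, had the lowest (191 CPM). Sertoli markers (14830, 14691, 9793 and 9820 CPM) and macrophage markers (1241, 1226, 743 and 835 CPM) were highest and lowest in the same VCR libraries. In High-VCR the libraries ranked alike by Leydig markers and by these kallikreins. In Low-VCR 1 to 4 the Leydig markers summed to 6827, 6188, 7027 and 7472 CPM. The kallikreins there summed to 263, 148, 303 and 168 CPM, highest in another library than the Leydig markers. In VCR against NC the 24 round spermatid markers were all called lower, with a median log2 fold change of −3.14. They summed to 252 to 6143 CPM in VCR libraries, against 14760 to 16346 CPM in NC libraries. Defining markers of salivary gland, the organ where several Klk1b genes are abundant in mice, summed to 53.2 to 73.6 CPM in VCR libraries and to 39.6 to 53.0 CPM in NC libraries, with 1 of 3 tested markers called higher and 1 lower.

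**Figure D4:**
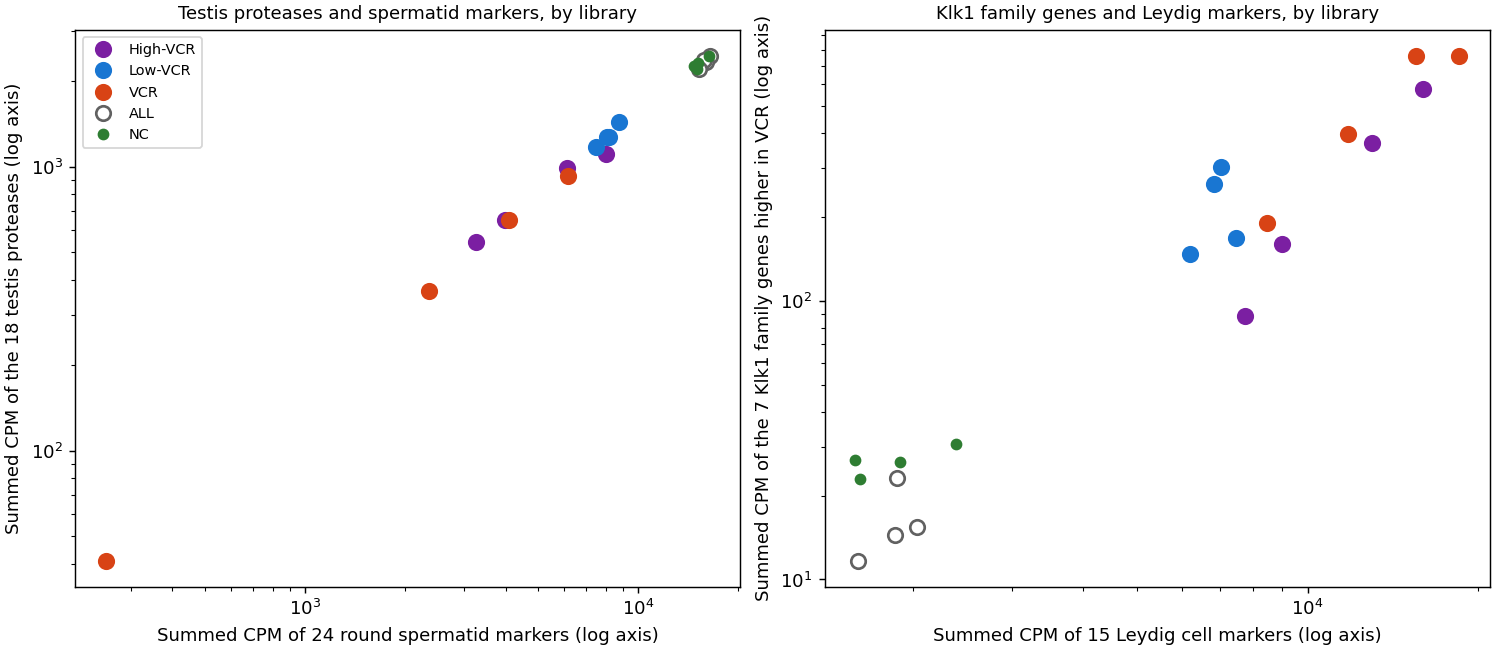
Left, summed CPM of the 18 testis proteases (y axis) against summed CPM of 24 round spermatid markers (x axis); right, summed CPM of the 7 Klk1 family genes higher in VCR against summed CPM of 15 Leydig cell markers, 1 point per library, all axes logarithmic. VCR 1 lies lowest on the left at 40.8 CPM, and on the right the libraries given vincristine lie at 88.1 CPM or higher while ALL and NC libraries reach at most 30.7 CPM.

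Outside those families, 4 Prss genes rose in VCR against NC. Prss35, a secreted relative of the proteases with a changed active site, measured 50.9, 51.8, 34.0 and 33.5 CPM in VCR libraries, against 3.41, 5.81, 6.399 and 3.83 CPM in NC libraries. Prss12 (neurotrypsin, which cuts agrin at synapses) measured 14.6, 8.20, 7.28 and 8.21 CPM in VCR libraries, against 0.975, 1.61, 1.357 and 1.88 CPM in NC libraries. Every VCR library of both was far above every NC library, with VCR 1 the high library for Prss12. The log2 fold changes were 3.13 ± 0.27 for Prss35 (adjusted p = 4.21e-08) and 2.69 ± 0.28 for Prss12 (adjusted p = 2.06e-07). Prss8 (prostasin, an activator of the epithelial sodium channel) averaged 1.04 ± 0.219 CPM in VCR and 0.153 ± 0.132 CPM in NC testis (2.57 ± 0.54; adjusted p = 0.000348), below the level of 3 counts in NC testis. Prss36 rose by 1.34 ± 0.32 (adjusted p = 0.00092), a sign that reversed under Sertoli scaling (−0.85), while Prss35 and Prss12 stayed higher there (0.93 and 0.51) and Prss8 was no longer called (0.46; adjusted p = 0.493). Prss12, Prss8, Prss23, Prss38 and Tmprss9 overlap a gene on the other strand.

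The Prss genes that fell included Prss23, a widely expressed secreted protease. It measured 5.56, 7.97, 7.67 and 7.30 CPM in VCR libraries, against 14.4, 12.1, 12.3 and 16.0 CPM in NC libraries. Its groups did not overlap and its log2 fold change was −0.94 ± 0.14 (adjusted p = 1.37e-05). Prss47 averaged 5.51 ± 4.31 CPM in VCR and 23.7 ± 5.54 CPM in NC testis (−2.10 ± 0.54; adjusted p = 0.00199), and Prss56, known for its role in eye growth, averaged 9.59 ± 7.74 CPM in VCR and 33.9 ± 7.75 CPM in NC testis (−1.81 ± 0.60; adjusted p = 0.0111). Prss38 was lower by −1.54 ± 0.49 (adjusted p = 0.00882) and Prss48 by −1.43 ± 0.56 (adjusted p = 0.0278), the second not called without VCR 2 (−1.22) or NC 1 (−1.36). Prss29 and Prss53 were not called; 74.4% of the 50-base windows of Prss53 are shared with Gm21974.

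Of the other Tmprss genes, 7 of 11 fell and 0 rose in VCR against NC. Tmprss2, which activates viral surface proteins in the airway, averaged 0.816 ± 0.520 CPM in VCR and 2.29 ± 0.263 CPM in NC testis (−1.47 ± 0.36; adjusted p = 0.00131), and Tmprss9 averaged 2.40 ± 0.857 CPM in VCR and 6.33 ± 1.49 CPM in NC testis (−1.39 ± 0.24; adjusted p = 5.8e-05). Tmprss15 (enteropeptidase, which activates trypsinogen in the gut) averaged 0.187 ± 0.203 CPM in VCR and 1.34 ± 0.374 CPM in NC testis (−2.81 ± 0.63; adjusted p = 0.000597; −3.67 without VCR 4). Tmprss11b averaged 0.286 ± 0.219 CPM in VCR and 3.67 ± 0.536 CPM in NC testis (−3.62 ± 0.68; adjusted p = 0.000119). Tmprss11d and Tmprss11f had 3 counts each over the 4 VCR libraries, against 57 and 51 counts over the 4 NC libraries, a ratio of NC over VCR of 25.3 (95% counting interval 8.22 to 126) and 22.6 (7.31 to 113.2) that covers counting error only; both were called lower (adjusted p = 0.00104 and 0.000196). Tmprss11c, the most abundant of that subfamily, averaged 24.6 ± 21.8 CPM in VCR and 70.6 ± 3.43 CPM in NC testis (−1.52 ± 0.63; adjusted p = 0.0356), and was not called without VCR 2 or any single NC library, while without VCR 3 it was −2.20. Tmprss3, Tmprss5, Tmprss6 and Tmprss13 were not called.

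The genes that did not pass the filter were near the level of a few counts. They were Prss2, Prss16, Prss27, Prss30, Prss32, Prss33 and Prss57, Tmprss4, Tmprss7, Tmprss11a, Tmprss11e and Tmprss11g, and Klk1b11, Klk6, Klk7, Klk8, Klk10 and Klk15. Klk10 had 38, 14 and 28 summed counts in High-VCR, Low-VCR and VCR libraries, against 3 counts in ALL and 3 in NC libraries. Such summed counts are not scaled to depth. In CPM, Klk10 measured 0.502 to 0.723 in High-VCR, 0.0726 to 0.459 in Low-VCR and 0.131 to 0.762 in VCR libraries. It measured 0 to 0.109 in ALL and 0 to 0.122 in NC libraries, and was not tested. Prss2, a pancreatic trypsin, had 4, 3 and 2 summed counts in High-VCR, Low-VCR and VCR libraries, against 9 in ALL and 13 in NC libraries. Klk14 passed the filter and was called in none of the comparisons.

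In mice with leukaemia, High-VCR against ALL gave a pattern of the same kind, with 23 of 54 genes lower and 11 higher (median −0.92); 72.9% of all genes were called, 30.5% lower and 42.4% higher, with a median of 0.16. Low-VCR against ALL gave 5 lower and 11 higher (median −0.69); 51.6% of all genes were called, 15.2% lower and 36.4% higher, with a median of 0.08. Both comparisons use the same ALL libraries. The split depended on the scaling: in High-VCR it was 17 lower and 14 higher with library size alone and 43 lower and 6 higher with Sertoli scaling, and in Low-VCR it was 11 lower and 10 higher with DESeq2, 2 lower and 13 higher with library size alone and 41 lower and 5 higher with Sertoli scaling. With library size alone the median of all genes was 0.45 in High-VCR against ALL, 0.33 in Low-VCR against ALL and 0.49 in VCR against NC, and with DESeq2 it was −0.01, −0.10 and −0.02. Testis proteases were lower in 11 of 18 cases in High-VCR against ALL and in 1 of 18, Prss54, in Low-VCR against ALL. A fit to the 2 groups alone called 25 genes lower in Low-VCR against ALL in place of 5. Without 1 library in turn the count was 2 (without ALL 2), 3 (without ALL 1, 3 or 4 or Low-VCR 1, 2 or 4) or 4.

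Prss39 measured 137, 336, 254 and 149 CPM in High-VCR libraries and 334, 367, 311 and 354 CPM in Low-VCR libraries, against 627, 634, 672 and 617 CPM in ALL libraries. Every treated library lay under every ALL library, and the Low-VCR libraries were close together. The difference was called in High-VCR (−1.54 ± 0.54; adjusted p = 0.0173), where it was not called without High-VCR 1 (−1.37) or 4 (−1.39), and not in Low-VCR (−0.90 ± 0.53; adjusted p = 0.155). Prss37 averaged 81.9 ± 26.8 CPM in High-VCR and 142 ± 22.6 CPM in Low-VCR, against 247 ± 26.2 CPM in ALL testis, with log2 fold changes of −1.59 ± 0.51 (adjusted p = 0.0103) and −0.79 ± 0.50 (adjusted p = 0.18). Prss55 averaged 79.2 ± 18.9 CPM in High-VCR and 117 ± 25.6 CPM in Low-VCR, against 201 ± 19.4 CPM in ALL testis, with −1.34 ± 0.50 (adjusted p = 0.0229, not called without High-VCR 1 or 4) and −0.77 ± 0.49 (adjusted p = 0.182). Tmprss12 was called in neither, at 17.8 ± 14.8 CPM in High-VCR and 18.7 ± 7.86 CPM in Low-VCR, against 32.3 ± 0.351 CPM in ALL testis.

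In High-VCR against ALL, Prss46 and Prss54 again had the largest falls among testis proteases. Prss46 measured 5.36, 13.3, 11.8 and 3.13 CPM in High-VCR libraries and 66.3, 25.2, 63.8 and 13.5 CPM in Low-VCR libraries, against 84.9, 86.0, 90.5 and 85.3 CPM in ALL libraries. Prss54 measured 17.3, 21.02, 27.2 and 14.8 CPM in High-VCR libraries and 78.9, 41.2, 88.2 and 29.2 CPM in Low-VCR libraries, against 157, 150, 137 and 137 CPM in ALL libraries. Low-VCR 1 and 3 lay between the ALL and High-VCR libraries for both genes, and Low-VCR 2 and 4 lay nearer to the High-VCR libraries. In High-VCR against ALL the log2 fold changes were −3.37 ± 0.63 for Prss46 (adjusted p = 0.000134) and −2.86 ± 0.50 for Prss54 (adjusted p = 8.16e-05). In Low-VCR against ALL Prss54 had −1.29 ± 0.48 (adjusted p = 0.0317), not called without Low-VCR 2 or 4 or ALL 1 or 2, and Prss46 had −1.04 ± 0.57 (adjusted p = 0.128); with library size alone Prss54 was not called either (−1.02; adjusted p = 0.079). Prss42 and Prss21 had −1.15 and −1.09 there, neither called.

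The library numbers of the labels place Low-VCR 1 and 2 in one range and Low-VCR 3 and 4 in another, so the split of Low-VCR did not follow the range. The other testis proteases called in High-VCR against ALL were Prss50 (−2.52 ± 0.62; adjusted p = 0.00152), Prss21, Prss40, Prss51, Prss52 and Prss59, with log2 fold changes of −1.17 to −1.70 for the last 5. Prss21 measured 12.5, 67.9, 26.2 and 18.7 CPM in High-VCR libraries, against 98.8, 98.4, 113.3 and 96.9 CPM in ALL libraries. High-VCR 2 was the high library, and without it the log2 fold change of Prss21 was −2.41 in place of −1.70. Prss51 (−1.17 ± 0.49; adjusted p = 0.0397), Prss52 and Prss59 were not called without High-VCR 1, Prss51 also not without High-VCR 2 or 4 or any single ALL library, Prss52 not without High-VCR 2 (−1.31), and Prss59 not without High-VCR 4 or ALL 1.

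The kallikreins rose with vincristine in mice with leukaemia too, 7 in Low-VCR against ALL and 6 in High-VCR against ALL, and 2 and 3 fell. Klk1b21 measured 187, 24.6, 53.1 and 117 CPM in High-VCR libraries and 82.4, 48.2, 89.1 and 51.1 CPM in Low-VCR libraries, against 5.11, 1.82, 1.27 and 3.42 CPM in ALL libraries. Klk1b27 measured 214, 31.9, 58.2 and 134 CPM in High-VCR libraries and 91.0, 46.2, 115 and 57.9 CPM in Low-VCR libraries, against 5.11, 4.86, 3.42 and 3.31 CPM in ALL libraries. No treated library overlapped the ALL libraries; High-VCR 1 and 4 and Low-VCR 1 and 3 were the high ones. The log2 fold changes of Klk1b21 were 5.04 ± 0.65 in High-VCR (adjusted p = 3.19e-06) and 4.55 ± 0.64 in Low-VCR (adjusted p = 1.71e-05), and those of Klk1b27 were 4.71 ± 0.58 and 4.21 ± 0.57. Klk1b24 had 4.29 ± 0.57 and 3.99 ± 0.56, Klk1b22 had 5.21 ± 0.85 and 4.43 ± 0.86, and Klk1b1 had 4.18 ± 0.77 and 3.25 ± 0.79. Without High-VCR 1 the High-VCR values of Klk1b22 and Klk1b1 were 4.33 and 3.31. Klk1 had 1.31 ± 0.37 in High-VCR and 1.34 ± 0.37 in Low-VCR, which under Sertoli scaling became −0.99 and −0.60; the Low-VCR call of Klk1b1 was lost there too (1.37; adjusted p = 0.0906). Klk1b22 and Klk1b1 had 7 and 13 counts over the 4 ALL libraries.

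Klk1b16 was called in Low-VCR against ALL only narrowly, at 1.07 ± 0.43 (adjusted p = 0.0482), and the call was lost without ALL 2, 3 or 4 or Low-VCR 1, 2 or 3 and reversed under Sertoli scaling (−0.88); in High-VCR it was not called (0.97 ± 0.43; adjusted p = 0.053). Klk1b8 fell in both, at 41.4 ± 9.80 CPM in High-VCR and 47.7 ± 14.9 CPM in Low-VCR, against 85.8 ± 6.59 CPM in ALL testis, with −1.05 ± 0.23 (adjusted p = 0.00054) and −0.85 ± 0.23 (adjusted p = 0.00493). Klk1b26 measured 5.43, 8.89, 10.1 and 6.36 CPM in High-VCR libraries and 7.38, 12.2, 5.90 and 10.96 CPM in Low-VCR libraries, against 19.0, 17.8, 18.1 and 17.5 CPM in ALL libraries. Its treated libraries all lay below the ALL libraries (−1.24 ± 0.40, adjusted p = 0.0102; −0.99 ± 0.39, adjusted p = 0.0439, the second not called without any 1 of the ALL libraries or of Low-VCR 1, 3 and 4). Klk1b9 was called lower in High-VCR against ALL (−1.02 ± 0.32; adjusted p = 0.00894).

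Prss35 measured 40.7, 22.4, 34.1 and 50.5 CPM in High-VCR libraries and 21.8, 19.8, 23.7 and 30.1 CPM in Low-VCR libraries, against 5.11, 3.95, 3.91 and 3.75 CPM in ALL libraries. The log2 fold changes were 3.14 ± 0.27 (adjusted p = 6.43e-08) and 2.51 ± 0.26 (adjusted p = 1.36e-06). Prss12 averaged 7.91 ± 2.23 CPM in High-VCR and 6.25 ± 0.987 CPM in Low-VCR, against 1.44 ± 0.221 CPM in ALL testis (2.45 ± 0.28 and 2.11 ± 0.28), which under Sertoli scaling was no longer called in either (0.19 and 0.15). Prss36 was higher by 1.63 ± 0.33 and 1.61 ± 0.33, with the sign reversed under Sertoli scaling (−0.60 and −0.36). Tmprss5 (spinesin, known from the nervous system) averaged 2.52 ± 0.548 CPM in High-VCR and 2.38 ± 0.601 CPM in Low-VCR, against 0.335 ± 0.477 CPM in ALL testis. It was called higher in both (2.86 ± 0.93, adjusted p = 0.0109; 2.78 ± 0.93, adjusted p = 0.0199), and without ALL 2 the values were 4.45 and 4.37, while the Low-VCR call was lost without ALL 3 or 4. Prss23 fell in both (−0.90 ± 0.14, adjusted p = 2.26e-05; −0.68 ± 0.14, adjusted p = 0.000652), as did Tmprss9 (−0.85 ± 0.24, adjusted p = 0.00401; −0.64 ± 0.24, adjusted p = 0.0308), whose Low-VCR call was lost without Low-VCR 1 or 2 or ALL 2, 3 or 4.

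Further calls in High-VCR against ALL were Tmprss2 (−1.21 ± 0.34; adjusted p = 0.00405), Tmprss11b, Tmprss11d, Tmprss11f, Prss38, Prss47 and Tmprss15. Tmprss11b averaged 0.600 ± 0.569 CPM in High-VCR and 3.34 ± 0.484 CPM in ALL testis (−2.48 ± 0.61; adjusted p = 0.00167; −3.37 without High-VCR 3). Tmprss11f averaged 0.162 ± 0.143 CPM in High-VCR and 1.12 ± 0.108 CPM in ALL testis (−2.74 ± 0.71; adjusted p = 0.00239). Tmprss11d averaged 0.0802 ± 0.0834 CPM in High-VCR and 1.04 ± 0.625 CPM in ALL testis (−3.54 ± 1.01; adjusted p = 0.00481; −4.34 without High-VCR 3). These transcripts were thus close to the level of 3 counts in the treated libraries. Prss38 (−1.17 ± 0.49; adjusted p = 0.0387) was −1.88 without High-VCR 2 and was not called without High-VCR 1, 3 or 4 or any single ALL library, and Prss47 (−1.38 ± 0.52; adjusted p = 0.0255) was −1.99 without High-VCR 2 and was not called without High-VCR 1, 3 or 4. Prss8, named like Tmprss15 after its values were seen since both stayed under 1 CPM, was called higher as well (2.10 ± 0.54; adjusted p = 0.00239), at 0.814 ± 0.283 CPM in High-VCR and 0.186 ± 0.166 CPM in ALL testis.

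Marker levels beside these comparisons moved with them, and their part in the results was not tested. Round spermatid markers summed to 3269 to 8009 CPM in High-VCR and 7470 to 8774 CPM in Low-VCR libraries, against 15250 to 16425 CPM in ALL libraries; of 24 markers, 23 were called lower in High-VCR and 6 in Low-VCR. Leydig cell markers summed to 7743 to 16000 CPM in High-VCR and 6188 to 7472 CPM in Low-VCR libraries, against 1604 to 2034 CPM in ALL libraries. Sertoli cell markers were all called higher, 22 of 22, in both and in VCR against NC. The library number range, as a term in the fit, left every named call of High-VCR against ALL in place and removed those of Klk1b16 and Klk1b26 in Low-VCR against ALL. Library size alone ended the calls of Prss38, Prss47, Prss51, Prss52, Prss55 and Prss59 in High-VCR against ALL and of Klk1b26 and Tmprss9 in Low-VCR against ALL, and Sertoli scaling those of Tmprss5 in both (0.67 and 0.84).

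Degree of infiltration, High-VCR against Low-VCR, separated few of these genes: 3 of 54 were lower and 0 higher, where 7.81% of all genes were called, 4.69% lower and 3.13% higher. The 3 were Prss46 (−2.33 ± 0.60; adjusted p = 0.0299), Prss50 (−2.42 ± 0.61; adjusted p = 0.0284) and Tmprss15 (−2.69 ± 0.69; adjusted p = 0.029). Prss50 measured 5.02, 7.98, 7.10 and 3.29 CPM in High-VCR libraries, against 45.3, 12.7, 58.3 and 8.35 CPM in Low-VCR libraries. All High-VCR libraries lay below all Low-VCR libraries, and Low-VCR 1 and 3 were far above Low-VCR 2 and 4. Prss46, with the values given above, showed Low-VCR 1 and 3 high in the same way and Low-VCR 4 close to High-VCR 2. Tmprss15 measured 0.0678, 0.130, 0 and 0.167 CPM in High-VCR libraries, against 0.759, 0.307, 1.05 and 0.508 CPM in Low-VCR libraries, at the level of single counts in High-VCR. Without Low-VCR 4 the count of lower genes was 6. None of the 3 was called without Low-VCR 1 or 3 or High-VCR 1 or 4, and Tmprss15 was also not called without High-VCR 3; Prss46 then had −2.03, −2.06, −2.17 and −2.06, Prss50 −2.18, −1.92, −2.35 and −2.22, and Tmprss15 −2.62, −2.37, −2.58, −3.14 and −2.33. Prss54 did not pass (−1.56 ± 0.48; adjusted p = 0.0535). A fit to the 2 groups alone called 0 of these genes, with no value for Tmprss15, and Prss46 was also not called with Sertoli scaling (−2.52; adjusted p = 0.0611). Of 24 round spermatid markers 11 were called lower and 0 higher in this comparison, with sums of 3269 to 8009 CPM in High-VCR libraries, against 7470 to 8774 CPM in Low-VCR libraries; their part in the result was not tested.

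Within Low-VCR other genes ran the other way. Prss44 measured 10.0, 22.8, 7.41 and 25.7 CPM and Tmprss12 measured 14.4, 25.5, 9.84 and 25.3 CPM in Low-VCR 1 to 4, high in libraries 2 and 4 where Prss46, Prss50 and Prss54 were low. The 7 kallikreins called higher in VCR against NC summed to 263, 148, 303 and 168 CPM in Low-VCR 1 to 4, high in libraries 1 and 3. The 18 testis proteases together summed to 1277, 1441, 1174 and 1271 CPM in the same libraries, with little spread. Elongating spermatid markers summed to 17003, 25336, 14228 and 23401 CPM and markers of pachytene spermatocytes, cells in meiosis, to 2914, 3470, 2574 and 3603 CPM in Low-VCR 1 to 4, both high in libraries 2 and 4. This contrast inside a group was noticed in the values and has no test, and the part of these markers in it was not tested. No Klk1 family gene was called in High-VCR against Low-VCR.

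Among mice given vincristine, Low-VCR against VCR, 21 of 54 genes were higher and 3 lower (median 0.65), where 30.2% of all genes were called, 16.7% higher and 13.6% lower, with a median of −0.04. The 21 were 10 testis proteases, 6 Klk1 family genes and 5 other Tmprss genes. Cell markers moved in this comparison too, and their part in it was not tested. Of round spermatid markers 18 of 24 were called higher and 0 lower, and of elongating spermatid markers 14 of 19 higher and 0 lower, with sums of 7470 to 8774 and 14228 to 25336 CPM in Low-VCR libraries, against 252 to 6143 and 504 to 12943 CPM in VCR libraries. Of Leydig cell markers 11 of 15 were called lower and 1 higher, and of macrophage markers 11 of 12 lower and 0 higher, with sums of 6188 to 7472 and 538 to 657 CPM in Low-VCR libraries, against 8462 to 18566 and 743 to 1241 CPM in VCR libraries. Prss46 averaged 42.2 ± 26.8 CPM in Low-VCR and 6.35 ± 4.62 CPM in VCR testis (2.73 ± 0.62; adjusted p = 0.00617), and Prss54 averaged 59.4 ± 28.6 CPM in Low-VCR and 10.997 ± 7.00 CPM in VCR testis (2.43 ± 0.50; adjusted p = 0.00432). Prss37, Prss39, Prss40, Prss50, Prss51, Prss52, Prss55 and Prss58 were higher by 1.46 to 1.65, Prss50 by 2.65 and Prss51 by 2.09 when VCR 4 and VCR 3 were left out in turn. Of the kallikreins with a lower mean in VCR than in NC testis, Klk1b5 (1.66 ± 0.39; adjusted p = 0.0071), Klk1b8 (0.90 ± 0.23; adjusted p = 0.0105), Klk1b9, Klk1b26, Klk1b3 and Klk1b4 were higher in Low-VCR by 0.90 to 1.85; without VCR 3 the values of Klk1b26, Klk1b3 and Klk1b4 were 1.80, 2.47 and 3.77. Tmprss2, Tmprss9, Tmprss11b, Tmprss11f and Tmprss15 were also higher, by 0.65 to 3.00; Tmprss11f had 29 counts over the Low-VCR libraries and 3 over the VCR libraries, and without VCR 2 it had 3.94, and Tmprss15 had 2.66 without VCR 4. The 3 lower genes were Klk1b1 (−1.84 ± 0.58; adjusted p = 0.0269), Klk1b22 (−1.66 ± 0.57; adjusted p = 0.0375) and Prss35 (−0.83 ± 0.24; adjusted p = 0.0172).

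These calls of Low-VCR against VCR were sensitive to how the spread was estimated. A fit to the 2 groups alone called 0 higher and 0 lower, and a fit with the library number range as a term called 10 higher and 1 lower. With library size alone 20 were higher and 7 lower, and with Sertoli scaling 14 and 0. VCR libraries all come from 1 number range and Low-VCR libraries from the other 2, so leukaemia and range cannot be told apart here. The range term marks only the highest number range. It does not separate VCR libraries from the Low-VCR libraries of lower number, so its counts do not show an adjustment for that difference. Leaving out 1 library in turn gave 7 to 23 higher and 0 to 8 lower: 7 higher without VCR 2, 9, 11, 13 and 12 without Low-VCR 1, 2, 3 and 4, and, on the lower side, 8 without VCR 3, 1 without VCR 1 or Low-VCR 4 and 0 without VCR 2 or Low-VCR 2. Of the named genes only Prss46, Prss54, Klk1b5, Klk1b8, Tmprss2 and Tmprss11b stayed called in each.

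High-VCR against VCR called 0 of 54 genes and 0.00605% of all genes by edgeR. At an unadjusted p under 0.05 there were 7 of these genes and 1358 of all genes. DESeq2 called none of the 3 with the smallest p either. Those were Klk1b5 (1.38 ± 0.39; adjusted p = 0.429), Klk1b8 (0.69 ± 0.23; adjusted p = 0.449) and Klk1b4 (1.54 ± 0.64; adjusted p = 0.549). Klk1b5 averaged 4.70 ± 1.46 CPM in High-VCR and 1.78 ± 1.28 CPM in VCR testis. This comparison and Low-VCR against VCR share the VCR libraries.

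Leukaemia without vincristine, ALL against NC, called 0 of the 54 genes and 0% of all genes by edgeR, with 0 of these genes and 748 of all genes at an unadjusted p under 0.05; DESeq2 called 0 of these genes and 19 of all genes. Testis proteases summed to 2211 to 2463 CPM in ALL libraries, against 2210 to 2462 CPM in NC libraries, and their median log2 fold change was 0.00. The 3 genes with the smallest p were Klk1b5 (0.79 ± 0.37), Klk1b21 (−1.23 ± 0.61) and Klk1b24 (−1.08 ± 0.54), each at an adjusted p of 1. Klk1b21 measured 5.11, 1.82, 1.27 and 3.42 CPM in ALL libraries, against 4.39, 9.15, 8.05 and 5.55 CPM in NC libraries, and the groups overlapped in ALL 1. Klk1b24 measured 5.98, 2.83, 2.15 and 3.09 CPM in ALL libraries, against 7.19, 9.15, 7.08 and 6.30 CPM in NC libraries, and Klk1b5 measured 6.85, 7.59, 7.71 and 5.85 CPM in ALL libraries, against 4.02, 3.23, 3.59 and 5.33 CPM in NC libraries. The groups of these 2 genes did not overlap, Klk1b24 being lower and Klk1b5 higher in ALL libraries. Of the 54 genes, 6 had groups without overlap in this comparison, 3 of them in the Klk1 family. The share over all genes was not counted, so no effect of leukaemia is read from this. ALL and NC libraries come from different number ranges, so leukaemia and range cannot be told apart.

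Whether the response to vincristine differed with leukaemia was tested as the difference of 2 log2 fold changes. Low-VCR against ALL minus VCR against NC called 2 genes, both with a smaller fall in mice with low infiltration, where 5.07% of all genes were called, 3.81% higher and 1.26% lower. They were Prss54 (2.53 ± 0.68; adjusted p = 0.0454) and Prss46 (2.96 ± 0.83; adjusted p = 0.0484); Tmprss11b, the next by p, did not pass (2.69 ± 0.88; adjusted p = 0.0741). The 2 calls were also lost with library size alone, with Sertoli scaling, with the library number range as a term and in a fit to the 4 groups compared (adjusted p of 0.0503 to 0.0945 for Prss54 and 0.051 to 0.105 for Prss46). They were lost without any 1 of the NC or ALL libraries, VCR 2, or Low-VCR 1 or 3, and the number of genes called became 8 without VCR 3 and 4 without VCR 4 or Low-VCR 4. Over all such fits the values were 2.15 to 2.81 for Prss54 and 2.58 to 3.44 for Prss46. The range term does not separate NC and VCR libraries from the engrafted libraries of lower number. High-VCR against ALL minus VCR against NC called 0 of 54 genes and 0.00605% of all genes, and Tmprss9 (0.54 ± 0.34), Prss55 (1.05 ± 0.70) and Prss54 (0.96 ± 0.67) had the smallest p, each at an adjusted p of 0.97.

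Partners of these proteases were counted from lists chosen with earlier results of these data known. Of 18 genes of sperm migration and ADAM3 maturation, 15 fell and 1 rose in VCR against NC, 13 fell and 2 rose in High-VCR against ALL, and 1 fell and 1 rose in Low-VCR against ALL. Over all genes 35.6% fell and 42.1% rose, 30.5% fell and 42.4% rose, and 15.2% fell and 36.4% rose in these comparisons. Adam3 itself, the sperm surface protein, had log2 fold changes of −2.11 in VCR against NC and −1.45 in High-VCR against ALL, both called, and −1.01 in Low-VCR against ALL, not called. Pdilt, a chaperone of ADAM3, had −4.31, −3.69 and −1.35, the last not called, and Ace, an enzyme needed for sperm migration in mice, had −1.94, −1.24 and −0.76, the last not called. Gpld1, an enzyme that cuts membrane anchors, rose in all 3, by 2.52, 2.25 and 1.52.

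The list of serine protease inhibitors also held Serpinh1 and Serpinf1, serpins not known to inhibit proteases. Of 31 genes of this list tested, 20 rose and 3 fell in VCR against NC, 21 rose and 5 fell in High-VCR against ALL, and 18 rose and 2 fell in Low-VCR against ALL. Of all genes, 42.1% rose and 35.6% fell, 42.4% rose and 30.5% fell, and 36.4% rose and 15.2% fell in the same comparisons. The median log2 fold changes of the inhibitors were 2.09, 1.69 and 1.13, against 0.10, 0.16 and 0.08 over all genes. Serpina3n, an acute-phase inhibitor, had 5.80 in VCR against NC, 3.49 in High-VCR against ALL and 2.46 in Low-VCR against ALL. Serpina5, an inhibitor of acrosomal and clotting proteases, had 2.57, 2.66 and 2.25, and Serping1, the inhibitor of complement C1 and plasma kallikrein, had 3.20, 2.71 and 1.99, all called. Spink2, which guards acrosin in spermatids of mice, fell by 1.88 in VCR against NC and by 1.57 in High-VCR against ALL, and had −1.03 in Low-VCR against ALL, not called. All 41 listed inhibitors together summed to 2511 to 2765 CPM in VCR libraries, against 2226 to 2555 CPM in NC libraries. Most of the NC sum was Pebp1, which averaged 772.6 ± 212.7 CPM in VCR and 1493.82 ± 109.98 CPM in NC testis. Spink2 also had a lower mean in VCR, while Serpina5 averaged 671.97 CPM in VCR and 112.995 CPM in NC testis. Serping1 averaged 442.06 CPM in VCR and 48.09 CPM in NC testis. The similar sums thus do not mean that the listed genes changed little.

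The list of other trypsin-like proteases also held related genes, among them the cofactor F3 and the growth factor Hgf, which is listed with the substrates too. Of 35 such genes tested, 20 rose and 9 fell in VCR against NC, where 42.1% of all genes rose and 35.6% fell. Acr, the acrosin gene, had −2.66 in VCR against NC and −2.23 in High-VCR against ALL, both called, and −1.18 in Low-VCR against ALL, not called. Plau and Plat, the plasminogen activators, rose in all 3 comparisons by 1.77 to 2.78. Of 11 tested substrates and receptors, 4 rose and 3 fell in VCR against NC, shares below those over all genes; Agrn (agrin, cut by neurotrypsin) rose in all 3 by 2.29, 2.41 and 1.95, and so did F2r, the thrombin receptor, by 2.30, 1.72 and 0.98. Hjv (hemojuvelin, cut by the product of Tmprss6) fell in VCR against NC by 2.31, while Tmprss6 itself was not called at 4.67 ± 4.05 CPM in VCR and 1.38 ± 0.599 CPM in NC testis.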

How the data were processed

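Whole-testis RNA in 20 samples was sequenced with a poly(A)-selected, directional kit, per the labels' protocols. The submitters' processing notes name Trimmomatic 0.39, STAR 2.7.10b, featureCounts of Subread 2.0.3, DESeq2 1.36.0 and the mouse build GRCm39; their roles, the annotation and the strand setting are not given in the sources used here. All deposited values are raw counts per gene symbol and library, used as the authors gave them, and the columns were matched to samples by the library names in the labels.

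Counts were tested with edgeR 4.0.16 (R 4.3.3, limma 3.58.1): filterByExpr by group with a minimum count of 10, TMM, glmQLFit (robust) on 5 group means of all 20 libraries with 15 residual degrees of freedom, and Benjamini-Hochberg adjustment over 16534 genes. The code was tested on simulated data. Alternatives were DESeq2 1.42.0, other scalings and filters, a fit to the groups compared alone, the replicate block, the library number range as a term, and leaving out each library. The range term marks libraries of the highest number range against all others. It does not separate NC and VCR libraries from the engrafted libraries of lower number. Named are all called genes with at least 1 CPM in the higher group for the comparisons with NC and ALL under vincristine, all called genes elsewhere, and the 3 with the smallest p where fewer than 3 were called. Members, classes and lists were chosen with earlier results of these data known.

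Exon lengths, overlaps and shared 50-base windows came from GENCODE and RefSeq models of GRCm38.p6, which held 71 of the 72 genes (not Prss59); promoter coordinates are of that build, not of the files' build. Promoter windows were aligned pairwise with Biopython 1.88.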

Additional observations from a re-analysis of the deposited data

Results flagged for a closer look

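Of 225 groups of 4 libraries checked, in 45 genes, 11 had 1 library whose gap to its neighbour exceeded the limit of Dixon's test, about the 1 in 20 that chance gives. The high ones were Klk1b4 in VCR 3 at 1.57 CPM, Klk1b9 in NC 4 at 18.1 CPM, Prss12 in VCR 1 at 14.6 CPM, Prss21 in ALL 3 at 113.3 CPM and in NC 1 at 118 CPM, Prss35 in ALL 1 at 5.11 CPM, Prss38 in ALL 4 at 9.38 CPM, Prss8 in ALL 1 at 0.435 CPM and Tmprss11b in High-VCR 3 at 1.45 CPM. The low ones were Prss47 in ALL 2 at 19.5 CPM and Prss8 in High-VCR 3 at 0.394 CPM.

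The log2 fold change under vincristine differed between mice with low infiltration and mice without leukaemia for Prss54, by 2.53 (adjusted p = 0.0454), and for Prss46, by 2.96 (adjusted p = 0.0484), in edgeR's test of the difference itself. Both fell less with low infiltration, and both calls were lost in a number of the other fits given below.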

How the results depend on the processing

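With Sertoli scaling, which moved the median of all genes to −2.05 in VCR against NC, −2.03 in High-VCR against ALL and −1.87 in Low-VCR against ALL, the genes called higher were 7, 6 and 5 in these comparisons, and 43 and 41 were lower in High-VCR and Low-VCR against ALL. Reversed there were Klk1b16 (−0.74), Klk1 (−0.39) and Prss36 (−0.85) in VCR against NC, Klk1b16 (−0.88), Klk1 (−0.60) and Prss36 (−0.36) in Low-VCR against ALL, and Klk1 (−0.99) and Prss36 (−0.60) in High-VCR against ALL; the cause was not tested. The median of the 54 genes in ALL against NC, −0.04, became 0.16 with Sertoli scaling, 0.0064 with the library number range as a term and −0.055 to 0.014 without 1 library in turn, and in High-VCR against VCR it ran from −0.014 to 0.80 without 1 library. Genes lower in Low-VCR against ALL, 5, became 11 with DESeq2, 2 with library size alone, 25 with only the groups compared and 2 to 4 without 1 library. In High-VCR against Low-VCR the 3 lower became 0 with only the groups compared or the replicate block and 0 to 6 without 1 library, and the 0 higher became 0 to 1. In Low-VCR against VCR the 21 higher became 10 with the range term, 0 with only the groups compared and 7 to 23 without 1 library, and the 3 lower became 5 with DESeq2, 7 with library size alone, 0 with Sertoli scaling, 1 with the range term, 0 with only the groups compared and 0 to 8 without 1 library. The 2 genes of the difference between Low-VCR and VCR responses became 4 with DESeq2, 1 with no filter, 0 with library size alone, Sertoli scaling, the range term, only the groups compared or the replicate block, and 0 to 8 without 1 library. In VCR against NC and High-VCR against ALL the counts stayed within 1.5 times of 32 and 11, and of 23 and 11, in all other fits run. Same-numbered libraries mostly correlated under 0.1 in their deviations from the group means (0.53 to −0.38 over all pairs), so the numbers do not pair the samples; beside the 2 counts given above, the block ended the calls of Klk1b26 in Low-VCR against ALL and of Tmprss15, Prss50 and Tmprss9 in Low-VCR against VCR, and moved no other count of calls past 1.5 times. Low counts limit the Tmprss11 genes other than Tmprss11c, Tmprss15, most Klk genes outside the Klk1 family and, in NC and ALL testis, Klk1b22 and Klk1b1.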
